A study of Drosophila melanogaster with 21 samples.

Results

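The ecdysone receptor and its early response genes were followed as a set of 10 genes in DL1 cells, an established Drosophila melanogaster cell line. The RNA-binding protein Pumilio was targeted by knockdown or knockout, and subunits of the CCR4-NOT deadenylase complex by knockdown. The members were found by gene name in both deposited tables, where all 10 occur among 17555 genes with an identifier: the receptor genes EcR and usp, the early genes Eip74EF, Eip75B and br, the further receptor genes Eip78C, Hr3 and Hr4, and the transcription factor genes ftz-f1 and Blimp-1. They were chosen with their group means and log2 ratios in all 7 groups in view, and Blimp-1 was included as a gene that appeared from 0 in both CCR4-NOT knockdowns. Counts of members called are therefore given as description, and the adjusted p-values of these calls are those of the authors' tables over all genes. Adjusted p-values by limma, and those of differences between knockdowns or between clones, were computed here.

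There were 21 samples, 3 in each group. In the RNA interference (RNAi) experiment, DL1 cells of wild-type genotype took up 20 µg of double-stranded RNA during a 60 min bath and were harvested 48 h later. The RNA targeted Pum, Not1 or Pop2, or the bacterial gene LacZ as control. In the knockout experiment, Pum KO clone 1 and Pum KO clone 2 were compared with wild-type (WT) DL1 cells, without double-stranded RNA. Each clone is 1 isolate, so the spread of its samples holds no difference between isolates. Poly(A)-selected RNA was sequenced by ClickSeq, in which azido-nucleotides end reverse transcription at random and a click reaction then ligates the adapter.

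Ecdysone is the steroid hormone that times moulting and metamorphosis in insects. Its active form, 20-hydroxyecdysone, binds a heterodimer of the nuclear receptors EcR and Ultraspiracle (Usp, the fly RXR). The bound receptor switches on early genes that encode transcription factors, and these in turn regulate later genes and one another. The pathway is known for controlling the fate of blood cells and the death of larval tissues at metamorphosis, and EcR signalling is active in several fly cell lines. Pumilio binds short elements in 3′ untranslated regions (UTRs) and represses the mRNAs that hold them. Not1 is the scaffold and Pop2 a catalytic subunit of CCR4-NOT, which shortens poly(A) tails.

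The values per library printed here are normalized counts, that is, reads divided by the size factor of their library. They were resolved from the deposited group means, and the libraries of each group are lettered A to C from the largest to the smallest size factor. The letters are not the replicate numbers of the labels. Reads resolved per library numbered 1202449 to 7684412 over the genes that could be resolved. Library C of LacZ RNAi and library C of Not1 RNAi stood apart from their groups. Their correlations with the other libraries of the group across 5979 genes were 0.897 to 0.899 and 0.919 to 0.920, whereas the lowest correlation between any others of a group was 0.984. Ribosomal protein genes were higher in them than in the mean of the others by 1.60 and 1.34 on the log2 scale (median of 35 genes). The members' log2 fold changes are given with and without them. Of the 40 and 32 genes of the other lists called in Not1 RNAi and Pop2 RNAi by the authors' deposited table, 37 and 29 had resolved reads. By limma, 35 and 27 of these were called in the same direction with all libraries, and 36 and 29 without both C libraries, where spo in Not1 RNAi was not called (limma adjusted p = 0.0585). The targeted mRNAs were lower in the authors' deposited table: pum by -1.69 ± 0.39 (log2, standard error, SE) in Pum RNAi, Not1 by -3.27 ± 0.18 in Not1 RNAi, Pop2 by -4.34 ± 0.31 in Pop2 RNAi, and pum by -1.55 ± 0.07 in clone 1 and -0.51 ± 0.07 in clone 2. Which part of pum was removed in the clones was not analysed here, so the level of pum does not check the knockout.

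Per kilobase of exon, the receptor genes and 3 transcription factor genes were the most abundant members in control cells. In WT, the authors' deposited table gave mean normalized counts per kb of 384 for usp, 257 for ftz-f1, 212 for br, 174 for Eip75B and 92.0 for EcR. Below these came Eip74EF at 27.6, Eip78C at 2.89, Hr4 at 0.723 and Blimp-1 at 0.143 per kb. The ranges of the 3 WT libraries did not overlap between any of these neighbours in the order, but ftz-f1 (lowest library 239.6 per kb) and br (highest 236.9) were close, as were br (lowest 193.6) and Eip75B (highest 191.8). In LacZ RNAi the same genes led, with 247 for usp, 201 for Eip75B, 198 for ftz-f1 and 139 for br per kb in the authors' deposited table. The LacZ RNAi libraries of each of these 4 genes overlapped with those of its neighbour in that order. EcR at 38.2 and Eip74EF at 16.8 per kb in the authors' deposited table did not overlap with each other or with br. The 2 tables were normalized separately, so levels are not compared between LacZ RNAi and WT.

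Hr3 (FBgn0000448, chromosome arm 2R, 10203995 to 10237348, minus strand, dm6), a nuclear receptor gene (DHR3) that acts between the early genes and ftz-f1, was listed at 0 in all 7 groups. The limit that a count of 0 allows, 3 reads over a group, lay between 0.670 and 1.26 mean normalized counts, for counting error only. Only 1810 of the 10465 exon bases of Hr3 (17.3%) are not shared with another annotated gene, and reads in shared bases may not have been counted. The overlapping genes are CG12912, CG46321 and lncRNA:CR46322. The 0 of Hr3 therefore covers the unshared bases and does not show that the gene was silent.

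**Figure D1:**
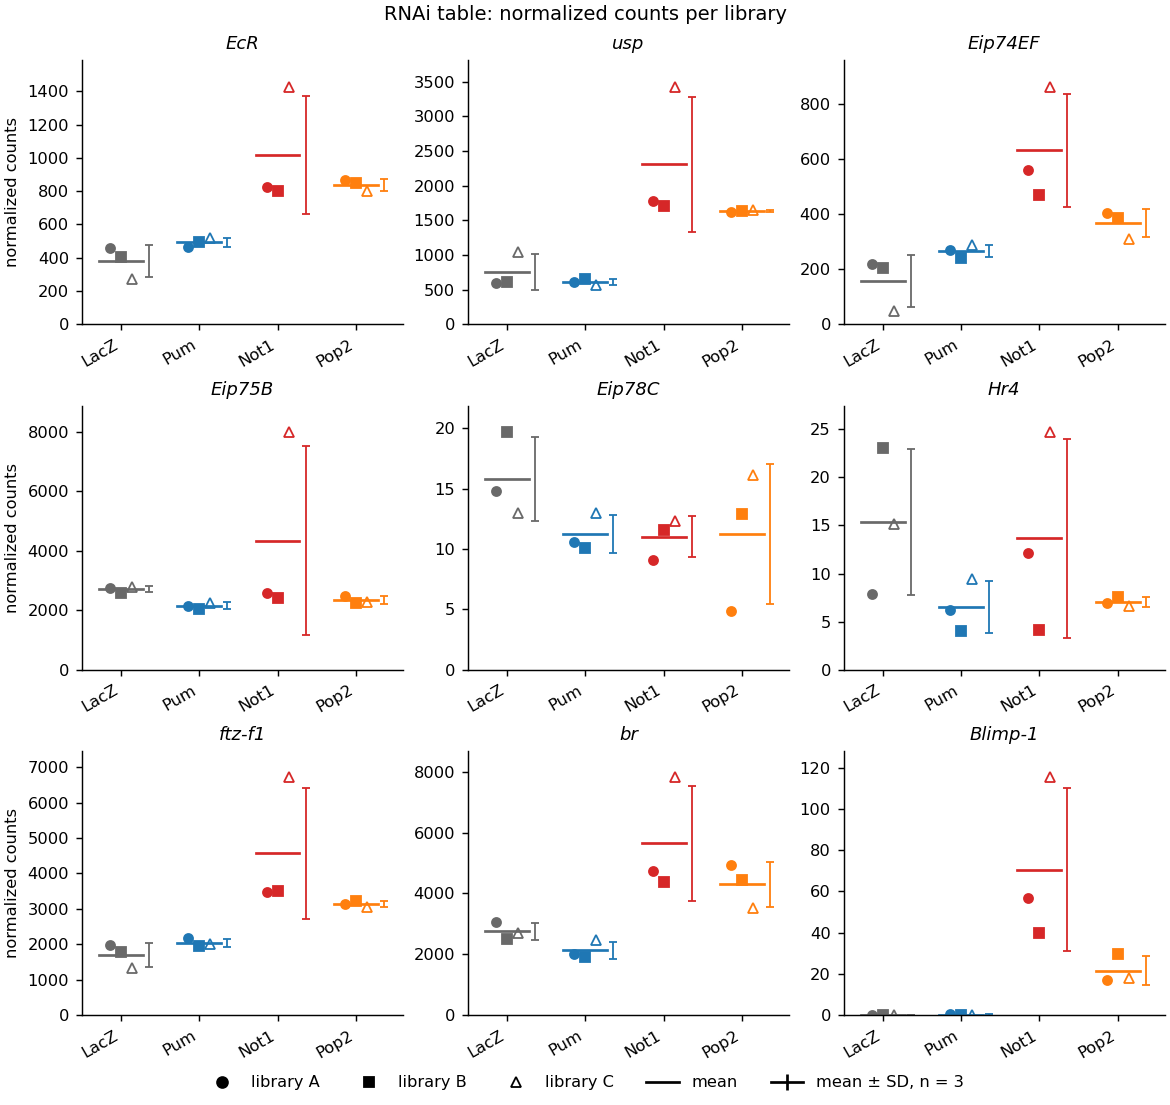
Normalized counts of 9 members (y axis, from 0) in the 3 libraries of each RNAi group (x axis); symbols mark libraries A, B and C, horizontal lines the mean and error bars 1 SD (n = 3). In EcR, usp, Eip74EF, ftz-f1, br and Blimp-1 all Not1 RNAi and Pop2 RNAi libraries lie above all LacZ RNAi libraries, and library C of Not1 RNAi (open triangle) is the highest in each of these genes.

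Depletion of Not1 or Pop2 was followed by higher mRNA of both receptor genes and of 4 transcription factor genes of the cascade. Not1 RNAi against LacZ RNAi asks which mRNAs depend on the scaffold of CCR4-NOT, and Pop2 RNAi against LacZ RNAi which depend on its catalytic subunit. Adjusted p-values below 0.05 in the authors' deposited table made 6 of the 9 tested members higher and 0 were lower in Not1 RNAi, where 25.7% of all tested genes were called higher and 24.2% lower. In Pop2 RNAi the same members, EcR, usp, Eip74EF, ftz-f1, br and Blimp-1, were higher and 0 were lower, and 18.8% of all tested genes were called higher and 20.1% lower. A call is an adjusted p below 0.05 in the authors' two-sided Wald test. Calls in either direction made up 50% and 39% of all tested genes. All 3 libraries lay above the control in 6 members in each knockdown (26.9% and 27.7% of all genes with a group mean of at least 5), and below it in 1 member in Not1 RNAi and 2 in Pop2 RNAi (25.9% and 25.6%). The median log2 fold change of the tested members was 1.40 in Not1 RNAi and 0.89 in Pop2 RNAi, beside 0.01 and -0.05 over all tested genes, in the authors' deposited table. Both comparisons share the LacZ RNAi libraries and were known when the members were chosen, so nothing is read from these shares. Values are relative to the other mRNAs of a library. RNA was captured by its poly(A) tail, and the part of tail length in these values was not tested. In bulk RNA, a change in the share of cells expressing a gene and a change in its RNA per cell cannot be told apart.

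EcR (FBgn0000546, chromosome arm 2R, 6087873 to 6169087, minus strand, dm6) encodes the hormone-binding partner of the receptor. Its normalized counts were 458, 407 and 273 in LacZ RNAi libraries A, B and C. They were 825, 801 and 1429 in Not1 RNAi and 870, 850 and 799 in Pop2 RNAi. All 6 libraries of these knockdowns lay above the 3 control libraries. EcR rose in Not1 RNAi by 2.64-fold (log2 1.40 ± 0.25, adjusted p = 1.85e-07) and 2.20-fold in Pop2 RNAi (log2 1.14 ± 0.25, adjusted p = 4.48e-05), both from the authors' deposited table. Without library C of LacZ RNAi and of Not1 RNAi, the log2 fold change by limma was 0.91 in Not1 RNAi and 0.96 in Pop2 RNAi, and the Not1 RNAi value was no longer the higher of both.

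usp (FBgn0003964, chromosome X, 2038798 to 2042311, minus strand) encodes the partner that EcR needs to bind DNA and hormone. LacZ RNAi libraries A, B and C held 591, 613 and 1048 normalized counts of usp. Not1 RNAi libraries held 1781, 1709 and 3430, and Pop2 RNAi libraries 1617, 1640 and 1649. The lowest knockdown library was above the highest control library, although library C was high in both LacZ RNAi and Not1 RNAi. usp rose in Not1 RNAi by 3.07-fold (log2 1.62 ± 0.30, adjusted p = 2.95e-07) and 2.19-fold in Pop2 RNAi (log2 1.13 ± 0.30, adjusted p = 0.000715), both from the authors' deposited table. By limma without both C libraries the log2 fold changes of usp were 1.53 and 1.44.

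Eip74EF (FBgn0000567, chromosome arm 3L, 17558672 to 17619325, minus strand) encodes the ETS-domain transcription factor E74 of the early puff at 74EF. Its LacZ RNAi libraries held 218, 204 and 47.7 normalized counts, the last from 22 reads in library C. Not1 RNAi libraries held 563, 469 and 865, and Pop2 RNAi libraries 406, 386 and 311. Control and knockdown libraries did not overlap, and the low control library C widens every fold change of this gene. Eip74EF rose in Not1 RNAi by 3.97-fold (log2 1.99 ± 0.42, adjusted p = 8.57e-06) and 2.32-fold in Pop2 RNAi (log2 1.22 ± 0.42, adjusted p = 0.0115), both from the authors' deposited table. Without both C libraries limma gave log2 fold changes of 1.28 in Not1 RNAi and 0.80 in Pop2 RNAi, both with an adjusted p below 0.05. The Pop2 RNAi call was lost when Pop2 RNAi library A was left out (limma adjusted p = 0.0541).

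Eip75B (FBgn0000568, chromosome arm 3L, 17950953 to 18064696, minus strand) encodes the heme-binding nuclear receptor E75, which antagonises Hr3. It stood at 2751, 2585 and 2790 normalized counts in LacZ RNAi, 2592, 2425 and 7994 in Not1 RNAi and 2496, 2242 and 2293 in Pop2 RNAi. Library C of Not1 RNAi alone was above the control range, Not1 RNAi library B and all 3 Pop2 RNAi libraries were below it, and Not1 RNAi library A was inside it. Eip75B was not called in either knockdown, at log2 0.68 ± 0.37 in Not1 RNAi (adjusted p = 0.122) and -0.21 ± 0.37 in Pop2 RNAi (adjusted p = 0.694) by the authors' deposited table. Without both C libraries the Not1 RNAi value turned to -0.09 by limma (adjusted p = 0.422). Eip75B thus held no call in the knockdowns in which Eip74EF, on the same chromosome arm, rose.

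br (FBgn0283451, chromosome X, 1575132 to 1664869, plus strand) encodes the Broad zinc finger proteins, which specify the pupal stage. Its normalized counts were 3072, 2510 and 2694 in LacZ RNAi, 4746, 4365 and 7812 in Not1 RNAi and 4948, 4440 and 3508 in Pop2 RNAi. All knockdown libraries were above all control libraries, with Pop2 RNAi library C nearest to them. br rose in Not1 RNAi by 2.04-fold (log2 1.03 ± 0.24, adjusted p = 7.52e-05) and 1.56-fold in Pop2 RNAi (log2 0.64 ± 0.24, adjusted p = 0.0229), both from the authors' deposited table. In Pop2 RNAi the call was lost by limma without LacZ RNAi library B (adjusted p = 0.0949), without Pop2 RNAi library A (adjusted p = 0.130) or without Pop2 RNAi library B (adjusted p = 0.0968). Without both C libraries the log2 fold changes of br were 0.71 and 0.62 by limma and both were called.

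Eip78C and Hr4, nuclear receptor genes that respond to ecdysone early in metamorphosis, were near the limit of what the depth resolves. Eip78C (FBgn0004865, chromosome arm 3L, 21226609 to 21266503, plus strand), which encodes E78, had 3 to 18 reads in the libraries of the RNAi experiment. Its normalized counts were 14.8, 19.7 and 13.0 in LacZ RNAi, 9.09, 11.6 and 12.4 in Not1 RNAi and 4.84, 12.9 and 16.1 in Pop2 RNAi. The Not1 RNAi libraries lay just below the control libraries and the Pop2 RNAi libraries overlapped with them. The log2 fold changes of Eip78C were -0.60 ± 0.52 (adjusted p = 0.349) and -0.54 ± 0.49 (adjusted p = 0.396) by the authors' deposited table. Hr4 (FBgn0264562, chromosome X, 1941940 to 2007956, plus strand) had 7.88, 23 and 15.2 normalized counts in LacZ RNAi, 12.1, 4.14 and 24.7 in Not1 RNAi and 6.91, 7.59 and 6.64 in Pop2 RNAi. The Pop2 RNAi libraries lay just below the lowest control library, and the Not1 RNAi libraries spread around the control range. For Hr4 the authors' deposited table gave -0.43 ± 0.65 (adjusted p = 0.611) in Not1 RNAi and -1.12 ± 0.64 (adjusted p = 0.162) in Pop2 RNAi on the log2 scale. The 95% intervals, -1.71 to 0.85 and -2.38 to 0.15, each end below the smallest called rise of a member in the same knockdown and extend to falls. That rise was br, at 1.03 in Not1 RNAi and 0.64 in Pop2 RNAi. The Not1 RNAi interval of Hr4 still holds rises as large as that of br in Pop2 RNAi.

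ftz-f1 (FBgn0001078, chromosome arm 3L, 18750607 to 18801309, minus strand) encodes the nuclear receptor that gives prepupal cells the competence to answer the next hormone pulse. LacZ RNAi libraries held 1995, 1779 and 1319 normalized counts of ftz-f1, Not1 RNAi libraries 3469, 3518 and 6709 and Pop2 RNAi libraries 3146, 3229 and 3063. The knockdown libraries were all above the controls, and library C was the lowest of LacZ RNAi and the highest of Not1 RNAi. ftz-f1 rose in Not1 RNAi by 2.68-fold (log2 1.42 ± 0.26, adjusted p = 2.78e-07) and 1.85-fold in Pop2 RNAi (log2 0.89 ± 0.26, adjusted p = 0.00269), both from the authors' deposited table. Without both C libraries limma gave 0.89 and 0.74, both called. Of the exon bases of ftz-f1, 70.6% are not shared with another gene, and the overlapping gene is lncRNA:CR45939.

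Blimp-1 (FBgn0035625, chromosome arm 3L, 5630983 to 5652094, plus strand) encodes a zinc finger repressor that delays ftz-f1 in Drosophila prepupae. It had 0 reads in each LacZ RNAi library, which allows up to 3 reads over the group, or 1.26 mean normalized counts. Pum RNAi held 1 read in library A and 0 in the others. Not1 RNAi held 75, 48 and 28 reads, equal to 56.8, 39.8 and 115 normalized counts. Pop2 RNAi held 25, 39 and 19 reads, equal to 17.3, 29.6 and 18.0 normalized counts. Each of the 6 CCR4-NOT libraries thus held at least 19 reads of a gene with none in the control. Against the limit of the control, the deposited means of 70.6 in Not1 RNAi and 21.6 in Pop2 RNAi in the authors' deposited table were at least 56.3-fold and at least 17.2-fold higher. Without the C libraries the means were 48.3 and 23.4, and the limit of 1.56 for 2 control libraries makes these at least 31.0-fold and at least 15.1-fold higher. In the knockout table Blimp-1 had 2, 0 and 1 reads in WT, 0 in each library of clone 1 and 1, 0 and 1 in clone 2. It was thus near 0 in every group outside the CCR4-NOT knockdowns. These values chose the gene, so it is counted among the authors' calls above as description only, and no p is read from it. ftz-f1, the gene that Blimp-1 represses in prepupae, was higher in the same 6 libraries.

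The difference between Not1 RNAi and Pop2 RNAi was tested as the difference of the deposited log2 fold changes. The authors' tables give no such contrast, and the shared controls make the error of this test too large. None of the 9 tested members differed (0 at an adjusted p below 0.05, 0 at an unadjusted p below 0.05), and 1.27% of all tested genes did. The differences, Not1 RNAi minus Pop2 RNAi, were 0.26 for EcR (95% interval -0.43 to 0.96), 0.49 for usp (-0.33 to 1.31), 0.77 for Eip74EF (-0.38 to 1.93), 0.53 for ftz-f1 (-0.19 to 1.25) and 0.39 for br (-0.28 to 1.05). These intervals allow differences of up to about the size of the rises themselves. The Blimp-1 libraries of Not1 RNAi, at 39.8 to 115 normalized counts, lay above those of Pop2 RNAi, at 17.3 to 29.6, and this is given as description, since the levels of Blimp-1 chose it. limma on the resolved reads, which contrasts the groups directly, gave Eip74EF a difference of 0.71 with all libraries (log2, adjusted p = 0.255). Without both C libraries limma called it, at 0.49 (adjusted p = 0.00428, with 29.4% of all genes called), as it did without LacZ RNAi library C alone (0.69, adjusted p = 0.0240). No other library, left out alone, gave a limma call of Eip74EF here. EcR differed by -0.05 and usp by 0.09 without both C libraries, neither of them called.

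Pum RNAi against LacZ RNAi asks which mRNAs change when Pumilio is depleted. None of the 9 tested members was called by the authors' DESeq2 test (0 at an unadjusted p below 0.05) or by limma on all 12 libraries (1, Eip74EF, at an unadjusted p below 0.05). Of all tested genes, 0.733% were called in the authors' deposited table, 0.512% higher and 0.221% lower. The members' median log2 fold change was -0.28, beside -0.02 over all tested genes, in the authors' deposited table. EcR had 466, 492 and 517 normalized counts in Pum RNAi and Eip74EF 271, 241 and 287, and all were above the LacZ RNAi libraries. Their log2 values were 0.37 ± 0.25 (adjusted p = 0.692) and 0.75 ± 0.42 (adjusted p = 0.605) by the authors' deposited table. Eip75B had 2160, 2032 and 2258 normalized counts and br 1996, 1928 and 2457, and all were below the LacZ RNAi libraries. The authors' deposited table gave -0.33 ± 0.37 (adjusted p = 0.822) for Eip75B and -0.38 ± 0.24 (adjusted p = 0.668) for br. Libraries failed to overlap with the control in 2 members upward and 2 downward, where 11.2% and 9.56% of all genes with a group mean of at least 5 did so. Without both C libraries limma called Eip75B lower, at -0.31 (adjusted p = 0.0377, with 6.94% of all genes called), and gave 0.18 for EcR and 0.33 for Eip74EF. The remaining members gave -0.28 for usp, -0.52 for Eip78C, -1.23 for Hr4 and 0.27 for ftz-f1 (log2), with adjusted p from 0.563 to 0.811, in the authors' deposited table.

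**Figure D2:**
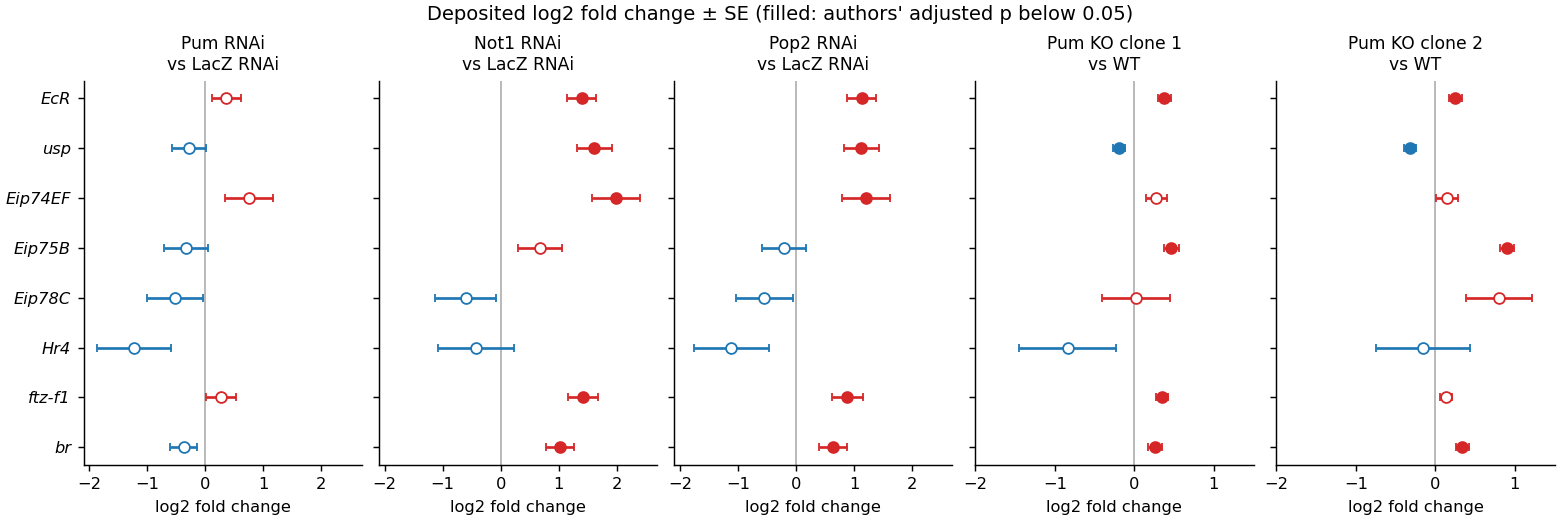
Deposited log2 fold changes (x axis, with the SE as error bars) of 8 members (y axis) in the 5 comparisons; filled points have an adjusted p below 0.05 in the authors' deposited table. Hr3, listed at 0, and Blimp-1, at 0 in LacZ RNAi, are not drawn. The rises in Not1 RNAi and Pop2 RNAi reach log2 1.99, whereas the called values in the knockout clones lie between -0.32 and 0.90.

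The knockout clones against WT ask which mRNAs differ in cells labelled as Pum knockouts. In both clones EcR, Eip75B and br were higher and usp was lower, and in clone 1 ftz-f1 was higher as well. In clone 1 the authors' deposited table called 4 of the 9 tested members higher and 1 lower, where 22.9% and 25.5% of all tested genes were called. In clone 2 it called 3 higher and 1 lower, where 21.3% and 23.5% were called. Calls in either direction made up 48.4% and 44.8% of all tested genes. The medians of the tested members were 0.26 and 0.15 (log2), beside -0.07 and -0.04 over all tested genes, in the authors' deposited table. Both clones share the WT libraries, and their values were known when the members were chosen.

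The receptor genes moved in opposite directions in the clones. EcR had 939, 966 and 836 normalized counts in WT, 1170, 1177 and 1229 in clone 1 and 1147, 1050 and 1071 in clone 2. All clone libraries were above all WT libraries. EcR rose by 0.38 ± 0.08 (log2, adjusted p = 5.79e-06) in clone 1 and 0.25 ± 0.08 (adjusted p = 0.00489) in clone 2 in the authors' deposited table. usp had 1176, 1182 and 1143 in WT, 1021, 1002 and 1047 in clone 1 and 975, 889 and 936 in clone 2. All clone libraries of usp were below all WT libraries. usp fell by 0.19 (SE 0.07, adjusted p = 0.0186) in clone 1 and by 0.32 (SE 0.07, adjusted p = 4.68e-05) in clone 2 as log2 values of the authors' deposited table. The clone 1 call of usp was lost by limma without clone 1 library B (adjusted p = 0.0517). In usp, 91.3% of exon bases are not shared with another gene, and the overlapping genes are Actn and CG4313.

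Eip75B showed the largest called change of a member in the clones. Its normalized counts were 2260, 2580 and 2161 in WT, 3044, 2946 and 3708 in clone 1 and 4358, 4181 and 4515 in clone 2. The ranges of the 3 groups did not overlap, with clone 1 between WT and clone 2. Eip75B rose 1.38-fold in clone 1 (log2 0.47 ± 0.09, adjusted p = 8.13e-07) and 1.86-fold in clone 2 (log2 0.90 ± 0.09, adjusted p = 2.20e-22) by the authors' deposited table.

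br and ftz-f1 changed less. br had 4069, 4686 and 3829 normalized counts in WT, 4977, 4555 and 5583 in clone 1 and 5122, 5272 and 5557 in clone 2. Clone 2 was above WT in every library, and clone 1 library B lay below WT library B. br rose by 0.26 ± 0.09 (log2, adjusted p = 0.00533) in clone 1 and 0.34 ± 0.09 (adjusted p = 0.000251) in clone 2 in the authors' deposited table. ftz-f1 had 2126, 2437 and 2056 in WT, 2729, 2772 and 2952 in clone 1 and 2533, 2301 and 2457 in clone 2. Its clone 1 libraries were all above WT and its clone 2 libraries overlapped with WT. ftz-f1 rose by 0.35 ± 0.08 (adjusted p = 1.32e-05) in clone 1, and clone 2 gave 0.14 ± 0.08 (adjusted p = 0.133), in the authors' deposited table. Without WT library B limma called ftz-f1 in clone 2 as well, at 0.21 (adjusted p = 0.00795).

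Eip74EF, Eip78C and Hr4 were not called in either clone. Eip74EF had 293, 261 and 220 normalized counts in WT, 285, 290 and 372 in clone 1 and 302, 272 and 288 in clone 2, and both clones overlapped with WT. Its log2 values were 0.28 ± 0.13 (adjusted p = 0.0751) in clone 1 and 0.15 ± 0.14 (adjusted p = 0.403) in clone 2 in the authors' deposited table. limma gave Eip74EF 0.26 in clone 1 with an adjusted p = 0.0404, and without clone 1 library C 0.15 with an adjusted p = 0.215. It was also not called by limma without WT library B, WT library C or clone 2 library C. Eip78C had 17.2, 17.5 and 16.2 in WT, 18.7, 7.60 and 26.6 in clone 1 and 29.7, 29.2 and 30.4 in clone 2. Its clone 2 libraries stood together above WT, from 27 to 32 reads each. The authors' deposited table gave clone 2 a log2 value of 0.81 ± 0.42 for Eip78C (adjusted p = 0.104), and limma 0.78 (adjusted p = 0.0451). This limma call of Eip78C was lost without any 1 of the WT libraries (adjusted p = 0.0889 to 0.0917) or of the clone 2 libraries (adjusted p = 0.0682 to 0.0820). In clone 1 its value was 0.02 ± 0.43 in the authors' deposited table (adjusted p = 0.979). Hr4 had 5 to 13 reads per library in all groups of the knockout table, and gave -0.84 ± 0.61 (adjusted p = 0.265) in clone 1 and -0.16 ± 0.59 (adjusted p = 0.858) in clone 2 in the authors' deposited table. Libraries of clone 1 and of clone 2 were all above WT in 3 and 4 members and all below it in 1 member each. Of all genes with a group mean of at least 5, 30.9% and 30.1% were above and 35.2% and 34.1% below.

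**Figure D3:**
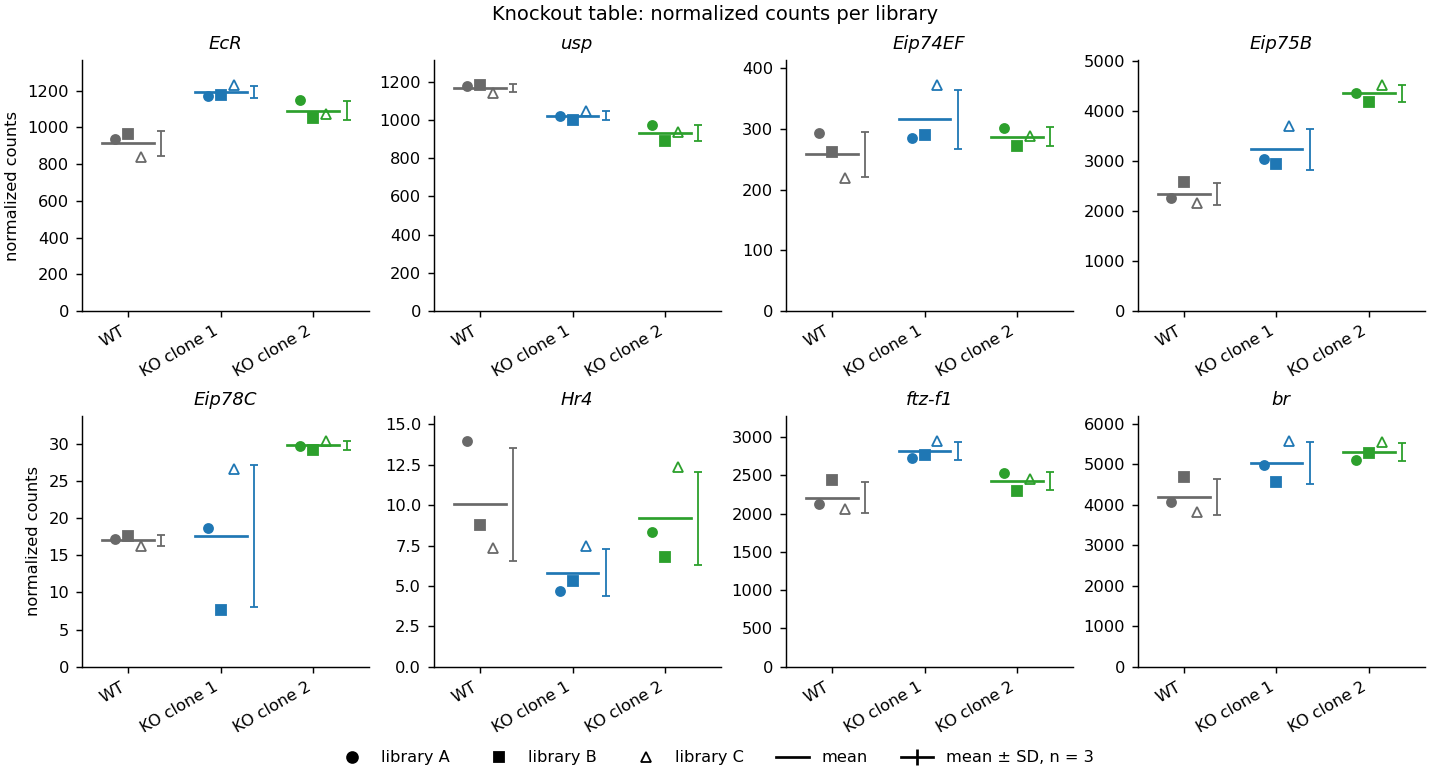
Normalized counts of 8 members (y axis, from 0) in the 3 libraries of WT and of each knockout clone (x axis); symbols mark libraries A, B and C, horizontal lines the mean and error bars 1 SD (n = 3). Eip75B goes from 2161 to 2580 in WT to 4181 to 4515 in clone 2, and the usp libraries of both clones lie below those of WT.

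The clones differed from each other in Eip75B. The difference of the authors' DESeq2 log2 fold changes, clone 1 minus clone 2, was -0.43 ± 0.13 (SE) for Eip75B (95% interval -0.68 to -0.18, adjusted p = 0.0127 by a two-sided Wald test over all genes), and 7.36% of all tested genes differed between the clones. All 3 clone 2 libraries were above all 3 clone 1 libraries. The intervals for EcR (-0.09 to 0.35), usp (-0.07 to 0.33), Eip74EF (-0.25 to 0.50), br (-0.31 to 0.16) and ftz-f1 (0.00 to 0.42, DESeq2 values, adjusted p = 0.317) bound the differences that could have been missed. Limma, contrasting the clones directly, called Eip75B (-0.44, adjusted p = 9.45e-05), ftz-f1 (0.21, adjusted p = 0.0268) and Eip78C (-0.97, adjusted p = 0.0188), with 24.2% of all genes called. ftz-f1 was higher in clone 1 and Eip78C in clone 2. The ftz-f1 call of limma was lost without clone 1 library B (adjusted p = 0.0505), clone 1 library C (adjusted p = 0.0795), clone 2 library B (adjusted p = 0.161) or clone 2 library C (adjusted p = 0.0595). The Eip78C call of limma was lost without clone 1 library B (-0.47, adjusted p = 0.256). The blood cell marker genes lz and PPO2, of crystal cells, stood at 10.4 and 1.22 mean normalized counts in WT, 4.02 and 2.30 in clone 1 and 919 and 410 in clone 2. Their part in the difference of Eip75B was not tested.

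**Figure D4:**
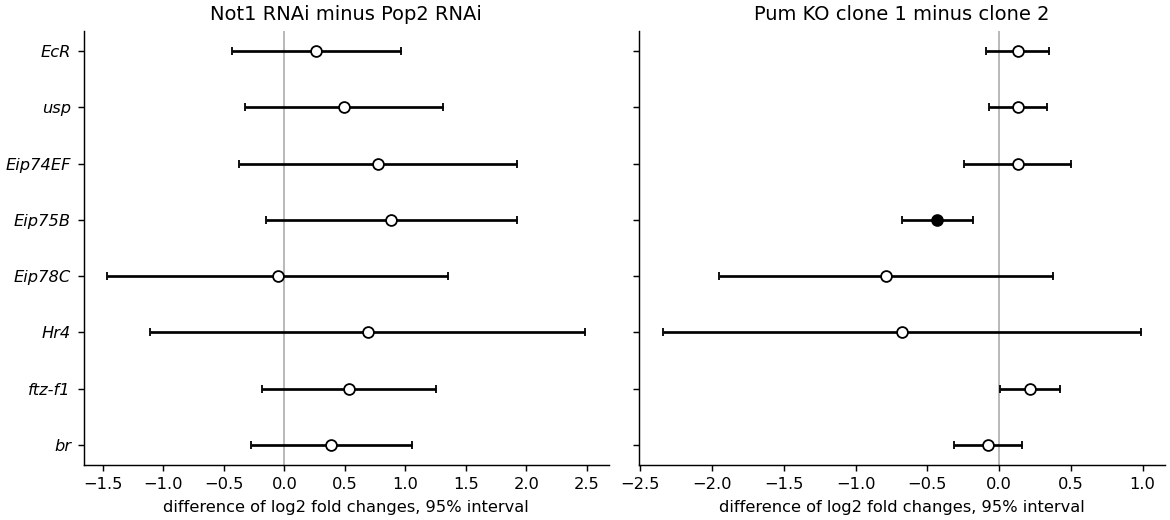
Differences of deposited log2 fold changes (x axis, with 95% intervals) of 8 members (y axis) between Not1 RNAi and Pop2 RNAi (left) and between knockout clones 1 and 2 (right); filled points have an adjusted p below 0.05 over all genes. Eip75B between the clones, at -0.43, is the only filled point.

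The other genes of the pathway come from lists that were chosen with results of these data known, so their counts are read only beside the shares of all tested genes. Those shares, higher and lower, were 25.7% and 24.2% in Not1 RNAi, 18.8% and 20.1% in Pop2 RNAi, 0.512% and 0.221% in Pum RNAi, 22.9% and 25.5% in clone 1 and 21.3% and 23.5% in clone 2. The medians over all tested genes were 0.01, -0.05, -0.02, -0.07 and -0.04 in the same order (log2, the authors' deposited table). Nothing is called particular to a list.

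Of 15 genes for ecdysone import and receptor cofactors, 5 rose and 6 fell in Not1 RNAi (median -0.12), 3 rose and 5 fell in Pop2 RNAi (0.12), 0 were called in Pum RNAi (-0.10), 5 rose and 3 fell in clone 1 (0.06) and 5 rose and 5 fell in clone 2 (0.07), in the authors' deposited table. Oatp74D, the ecdysone importer, went from 259 mean normalized counts in LacZ RNAi to 902 in Not1 RNAi and 561 in Pop2 RNAi (log2 1.77 ± 0.26 and 1.10 ± 0.26) in the authors' deposited table. In the clones Oatp74D fell instead, from 1195 in WT to 241 and 551 (log2 -2.32 ± 0.11 and -1.12 ± 0.10), in the authors' deposited table. E23, an ABC transporter gene that dampens the hormone response, rose from 133 in WT to 505 in clone 1 and 420 in clone 2 (log2 1.92 ± 0.12 and 1.66 ± 0.12) in the authors' deposited table. In the knockdowns E23 fell instead, from 589 in LacZ RNAi to 354 in Not1 RNAi and 366 in Pop2 RNAi (log2 -0.76 ± 0.25 and -0.69 ± 0.25), by the authors' deposited table. The importer gene was thus higher and E23 lower in both knockdowns, and the reverse held in both clones. In both CCR4-NOT knockdowns dor, a vesicle trafficking gene, rose (log2 1.84 ± 0.18 and 1.07 ± 0.18), and the chaperone gene Hsc70-4 fell (-1.04 ± 0.14 and -1.09 ± 0.14), in the authors' deposited table. Hsc70-4, at 46750 mean normalized counts in LacZ RNAi, was too abundant for its reads to be resolved. It was therefore not checked without both C libraries. The cofactor gene bon rose in both clones (log2 0.60 ± 0.08 and 0.30 ± 0.08) and in Not1 RNAi (1.00 ± 0.24), and Pop2 RNAi gave 0.47 ± 0.24 with no call, by the authors' deposited table. The chaperone gene Hsp83 fell in clone 2 (log2 -0.43 ± 0.07), and clone 1 gave -0.15 ± 0.07 with no call, by the authors' deposited table.

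Of 32 response genes, 29 are in the tables, and 12 rose and 2 fell of 22 tested in Not1 RNAi (median 0.87), and 9 rose and 3 fell in Pop2 RNAi (0.56), in the authors' deposited table. In Pum RNAi 0 of 21 were called (median -0.03), in clone 1 6 rose and 9 fell of 23 (-0.08), and in clone 2 4 rose and 7 fell of 23 (-0.04), in the authors' deposited table. The cell death gene rpr went from 12.4 mean normalized counts in LacZ RNAi to 482 in Not1 RNAi and 113 in Pop2 RNAi (log2 5.21 ± 0.38 and 3.14 ± 0.38) in the authors' deposited table. mamo, a zinc finger transcription factor gene, went from 53.1 to 3063 and 757 (log2 5.87 ± 0.64 and 3.85 ± 0.64) in the authors' deposited table. Eip55E, of cysteine synthesis, fell from 144 to 32.3 and 51.1 (log2 -2.13 ± 0.26 and -1.52 ± 0.23) in the authors' deposited table. In the clones the means of these genes moved the other way. From WT to clones 1 and 2, rpr went from 34.8 to 4.95 and 6.69 and mamo from 625 to 146 and 426. Eip55E went from 250 to 310 and 351, in the authors' deposited table. Drice, a caspase gene, rose in both knockdowns (log2 0.93 ± 0.12 and 0.43 ± 0.12) and fell in both clones (-0.34 ± 0.10 and -0.33 ± 0.10) in the authors' deposited table. Eip63E, a cyclin-dependent kinase gene, rose from 366 in LacZ RNAi to 1226 in Not1 RNAi and 781 in Pop2 RNAi (log2 1.74 ± 0.25 and 1.10 ± 0.25) by the authors' deposited table. Eip93F, an ecdysone-induced transcription factor gene, went from 896 in LacZ RNAi to 4964 in Not1 RNAi and 1460 in Pop2 RNAi in the authors' deposited table. By limma with all libraries it was called in Not1 RNAi (log2 2.31, adjusted p = 0.00269) and not in Pop2 RNAi (0.92, adjusted p = 0.180). In the clones Eip93F fell instead, from 937 in WT to 498 and 509 (log2 -0.92 ± 0.09 and -0.89 ± 0.09), in the authors' deposited table. Ldh, lactate dehydrogenase, fell as well (log2 -2.76 ± 0.21 and -1.74 ± 0.21 in clones 1 and 2), and so did Cad96Ca, a receptor tyrosine kinase gene (-3.40 ± 0.43 and -3.39 ± 0.45), in the authors' deposited table. ImpL2, an insulin antagonist gene, fell in clone 1 (log2 -0.73 ± 0.07) and rose in clone 2 (0.40 ± 0.07), and crol, a zinc finger gene, rose in both (0.60 ± 0.08 and 0.61 ± 0.08), in the authors' deposited table.

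Of the 14 remaining nuclear receptor genes, 5 of 7 tested rose in Not1 RNAi (median 1.06) and 4 of 7 in Pop2 RNAi (0.71), with 0 lower in either, in the authors' deposited table. None of 7 was called in Pum RNAi (median 0.08, 0 by the authors' DESeq2 test), 2 rose and 2 fell of 8 in clone 1 (-0.15), and 0 rose and 2 fell of 8 in clone 2 (-0.23), in the authors' deposited table. ERR, the estrogen-related receptor, rose to 354 in Not1 RNAi and 231 in Pop2 RNAi from 84.6 mean normalized counts (log2 2.01 ± 0.24 and 1.42 ± 0.24) in the authors' deposited table. Hr78 (log2 1.06 ± 0.18 and 0.71 ± 0.18) and Hr38, a partner of Usp (1.23 ± 0.28 and 0.86 ± 0.27), rose in both knockdowns, as did Hr39 (0.56 ± 0.23 and 0.81 ± 0.23), in the authors' deposited table. Hnf4 rose in Not1 RNAi (log2 1.16 ± 0.35), and Pop2 RNAi gave 0.08 ± 0.35 with no call, by the authors' deposited table. In clone 1 Hr38 (log2 0.91 ± 0.18) and eg (0.86 ± 0.19) rose, while clone 2 gave 0.17 ± 0.19 and -0.24 ± 0.21 with no call, and Hr78 fell in both clones (-0.29 ± 0.10 and -0.33 ± 0.10), in the authors' deposited table. Hr96 fell in clone 1 (log2 -0.32 ± 0.14, clone 2 -0.26 ± 0.14 with no call) and Hr39 in clone 2 (-0.23 ± 0.09, clone 1 0.03 ± 0.08 with no call) by the authors' deposited table.

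Of 12 genes for making and clearing the hormone, 5 were listed at 0 in LacZ RNAi and 2 in WT, and 4 or 5 were tested. Called genes numbered 2 higher and 1 lower in Not1 RNAi, 1 and 1 in Pop2 RNAi, 0 and 0 in Pum RNAi, 1 and 3 in clone 1 and 0 and 2 in clone 2, with medians of 0.69, 0.57, 0.30, -0.65 and -0.08, in the authors' deposited table. Npc1a, of sterol transport, rose in Not1 RNAi and Pop2 RNAi (log2 1.28 ± 0.35 and 0.86 ± 0.34) and fell in both clones (-0.65 ± 0.08 and -0.73 ± 0.08) in the authors' deposited table. Ptth, the neuropeptide that triggers ecdysone synthesis, fell in all of these, from 35.6 mean normalized counts in LacZ RNAi to 7.24 and 10.8 and from 70.9 in WT to 34.0 and 44.6, in the authors' deposited table. spo, a P450 gene of ecdysone synthesis, was called in Not1 RNAi, where its mean was 7.92, while LacZ RNAi is listed at 0, and Pop2 RNAi, at 0.483, was not called. tor, the Ptth receptor gene, fell from 10.6 in WT to a listed 0 in clone 1, and stood at 9.80 in clone 2 with no call, in the authors' deposited table. Cyp18a1, which inactivates the hormone, rose by 0.29 ± 0.08 (log2) in clone 1, and was not called in clone 2 (mean 666, WT 666.5), in the authors' deposited table. Ecdysone in the medium was not analysed here.

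Marker counts are likewise read only beside the shares of all tested genes given above. Hemocyte genes differed widely in level, with srp, a GATA factor gene, at 4271 to 6898 mean normalized counts. In LacZ RNAi srp held 4358 of their 9296 summed counts, while lz was at 0, PPO2 at 0.328 and NimC1 at 6.02. Of the 14 hemocyte genes, 3, 3 and 0 rose and 3, 4 and 0 fell in Not1, Pop2 and Pum RNAi. In clones 1 and 2, 5 and 6 rose and 8 and 5 fell. Their summed level was 8067 to 9802 in the RNAi groups and 16744 to 18455 in the knockout groups. The 2 tables were normalized separately, so the sums of this and the other marker lists are not compared between RNAi and knockout groups. The 5 marker genes of the prothoracic gland, the source of ecdysone, summed to 0.253 to 1.40 in the RNAi groups and 3.61 to 4.49 in the knockout groups, and the 4 of fat body to at most 0.751, in the authors' deposited table. Muscle markers summed to 17.8 to 31.7 and 31.6 to 58.0, with 0 called in RNAi, 1 lower in clone 1, and 1 higher and 2 lower in clone 2. Neuron markers summed to 1020 to 1176 and 1119 to 1917, most of it from elav, an RNA-binding protein gene. elav held 1094 of 1106 in LacZ RNAi and 1082 of 1119 in WT, and the other neuron markers stood at 0.328 to 7.38 in LacZ RNAi. Neuron marker calls numbered 2 higher in Not1 RNAi and 1 higher in each clone. The latter was elav (log2 0.66 ± 0.07 and 0.80 ± 0.07), in the authors' deposited table. Germline markers summed to 19.8 to 107 and 67.1 to 912, most of it from aub, a piRNA pathway gene (94.2 of 105 in LacZ RNAi, 889 of 912 in WT). The 1 germline marker that fell in Not1 RNAi, Pop2 RNAi and both clones was also aub. All 5 gland markers are also among the synthesis genes, and 2 of the fat body markers and Hr38 and Hr39 are also among the response genes. The part of these markers in the members' values was not tested.

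Likeness to a member was measured as the Euclidean distance over the 5 deposited log2 fold changes, among 6160 genes whose mean reached 50 normalized counts in a group of each table. The nearest gene to EcR was Sos, the Ras activator (distance 0.134), followed by Sap130 (0.219) and Stat92E, of the JAK/STAT pathway (0.228). usp was nearest to sno (0.177), RhoGAP18B (0.183) and CG5555 (0.201). ftz-f1 was nearest to CG18731 (0.217), Sap130 (0.242) and yrt (0.244), and br to CG6418 (0.231), CG8963 (0.234) and CG12155 (0.247). Sap130 was thus among the 3 nearest genes of both EcR and ftz-f1. Eip75B, with its rise in the clones, was nearest to Syp (0.350), Ncoa6 (0.362) and inaE (0.487), and Eip74EF to shg, E-cadherin (0.439), Pex13 (0.462) and CG5611 (0.469). The genes nearest to Blimp-1 were far from it, with sano at 1.77, Tie at 2.30 and hoe1 at 2.34. The SEs of the 5 Blimp-1 values were 1.27 to 2.28, and its knockdown values chose it, so nothing is read from these distances. Neighbours of Eip78C were CG30496 (0.447), CG13364 (0.492) and Archease (0.499), and of Hr4 Lk6 (0.580), CG7772 (0.674) and eIF2D (0.712). The SEs of the log2 values of Eip78C (0.42 to 0.52) and Hr4 (0.59 to 0.65) were about as large as these distances. The comparisons share controls and their libraries, so these distances are a description.

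All members but usp had long 3′ UTRs, a property that did not enter their choice. Lengths are set here only beside those of all coding genes, so nothing is called particular to the members. In the Ensembl release 115 annotation, whose gene starts and ends equal the deposited dm6 coordinates for all 10 members, the longest annotated 3′ UTR was 7430 bases for br, 5416 for Hr4, 4715 for EcR, 4013 for Hr3, 3280 for Blimp-1, 3098 for Eip74EF, 2688 for Eip75B, 2139 for ftz-f1, 2080 for Eip78C and 589 for usp. The median over 13546 coding genes was 227 bases. The 3′ UTR of usp was longer than that of 74.2% of these genes and those of the other members than that of 94.4% to 99.8%. The members with 3′ UTRs of 2080 bases or more that rose in the CCR4-NOT knockdowns were br, EcR, Eip74EF, ftz-f1 and Blimp-1, whose levels chose it. Those not called there were Eip75B, Eip78C and Hr4, and Hr3 was not tested. usp, with the shortest, rose in both. The part of 3′ UTR length in these values was not tested.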

How the data were processed

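Gene expression was measured in 21 DL1 samples (7 groups of 3) by single-end ClickSeq of poly(A)-selected RNA. Per the submitters' processing notes, fastp 0.14.1, HISAT2 2.1.0, UMI-tools 1.0.1, featureCounts and DESeq2 1.23.110 were used with build dm6. How each was set, such as the use of strand in counting, is not stated in those notes. The authors deposited 2 tables, for RNAi and for knockout, normalized separately. Their signal values, as deposited, are group means of reads scaled by the size factor of their library, and the same means per kb of gene length. Per the file headers, DESeq2 gave the log2 fold changes of each group over its control and their SE. The p-values and adjusted p-values are the authors' too, as deposited, and an adjusted p below 0.05 is a call. Rows that name no gene, 7 in each table (0.0448% and 0.0669% of the summed means), were left out, and 0 columns of per-sample values were left unused.

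The 3 whole-number reads behind each group mean were resolved from the decimals of the mean and size factors recovered from the same table, for means up to 6000. Every gene below that limit had exactly 1 solution, and 97.4% to 98.6% of genes above 0 per group were resolved, holding 52.8% to 68.4% of the normalized counts. The procedure was tested on data simulated from lower group means than those of Eip75B, ftz-f1 and br, and of usp in Not1 RNAi and Pop2 RNAi. The simulation therefore does not cover the resolved reads of these members. Counting error limits genes with few reads, and intervals and floors (3 reads) cover only that error. Whether the 3 samples of a group came from separate cultures was not checked beyond the labels, which call them biological replicates. No libraries agreed within sampling noise (chi-square per gene 1.91 to 49.8).

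Differences between knockdowns and between clones were tested as differences of deposited log2 fold changes with their SEs added in quadrature (two-sided, Benjamini-Hochberg over all genes). As alternatives, limma 3.58.1 (voom, R 4.3.3) was run on the resolved reads with all libraries, scaled by library total, without each library and without both C libraries, and thresholds and pseudocounts were varied. Other steps used Python 3.11.15. The gene lists (ecdysone synthesis and turnover, import and receptor cofactors, other response genes, remaining nuclear receptors, and markers of hemocytes, neurons, muscle, germline, fat body and prothoracic gland) and the members were chosen with earlier results of these data known. From each hormone list, up to 4 called genes per comparison with the smallest adjusted p were to be named, of which some are given in the text, and the 3 nearest genes of each member by log2 values. lz, PPO2, srp and NimC1 were named after their values were seen.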

Additional observations from a re-analysis of the deposited data

Results flagged for a closer look

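Eip75B differed between the 2 knockout isolates. The deposited log2 fold change was 0.47 in clone 1 and 0.90 in clone 2, a difference of -0.43 ± 0.13 (SE). Its adjusted p = 0.0127 over all genes was computed here, by a two-sided Wald test on the authors' DESeq2 values. limma on the resolved reads gave -0.44, and -0.54 without clone 1 library C. All 3 clone 2 libraries were above all 3 clone 1 libraries. Each clone is 1 isolate, so the isolate and the knockout cannot be told apart. The crystal cell genes lz and PPO2 were also higher in clone 2, and their part in the difference was not tested.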

How the results depend on the processing

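No paired analysis was possible because the deposited columns are group means and the resolved libraries carry no replicate numbers. Adjusting over every gene with a deposited p, the means of the deeper libraries alone and the limma values of the other pathway genes were chosen after seeing the data. Without both shallow C libraries, 1 member (Eip75B) was called in Pum RNAi and 2 (Blimp-1, Eip74EF) differed between Not1 RNAi and Pop2 RNAi, and usp in Pum RNAi (0.027), Eip75B in Not1 RNAi (-0.089), EcR between the knockdowns (-0.047) and Eip78C between them (0.090) changed sign. limma and limma scaled by library total each called 1 member between Not1 RNAi and Pop2 RNAi (Blimp-1, whose levels chose it; limma lost it without Not1 RNAi library A or any 1 Pop2 RNAi library) and 3 between the clones, and turned the sign of Eip78C in clone 1 (-0.20 and -0.21) and between the knockdowns (0.15 and 0.045). Scaling by total moved the median of all genes in Not1 RNAi from 0.02 to -0.08 and in Not1 RNAi against Pop2 RNAi from 0.03 to -0.10. A minimum of 2-fold left 0 members called in clone 1 and 0 in clone 2, and an adjusted p below 0.01 left 0 differing between the clones. Leaving out 1 library at a time gave 0 to 2 members differing between Not1 RNAi and Pop2 RNAi and 1 to 3 between the clones, 6 called in Not1 RNAi, 4 to 6 in Pop2 RNAi, 5 to 6 in clone 1, 4 to 5 in clone 2 and 0 in Pum RNAi. The cause of these changes was not tested. Depth limits Eip78C, Hr4 and Blimp-1, with at most 75 reads in a library.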
